A study of Mus musculus with 18 samples.

Results

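The miR-23/24/27 clusters are a pair of short loci that each give 3 miRNA hairpins, and 10 of the mature miRNAs they yield were examined here among 1907 mature miRNAs in the counts table. The 10 were taken by name: mmu-miR-23a-3p, mmu-miR-23b-3p, mmu-miR-24-3p, mmu-miR-27a-3p and mmu-miR-27b-3p from the 3p arms, and mmu-miR-23a-5p, mmu-miR-24-1-5p, mmu-miR-24-2-5p, mmu-miR-27a-5p and mmu-miR-27b-5p from the 5p arms. The mouse prefix is left out from here on. They occupied 11 rows of the table, because miR-24-3p is encoded by a hairpin in each cluster and was listed once for each. All 10 passed the filter on low counts that left 550 miRNAs to test. The filter asked for a minimum of 1.59 CPM (counts per 1000000 miRNA reads) in 3 libraries. Of the 10, miR-24-1-5p passed only through input libraries. miR-23a-5p passed only through IP libraries, reaching the minimum in all 9 of them but in 2 of the 9 inputs. Each entered the test through the side where it was high, so its p-values for IP against input are no independent support.

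The libraries came from NIH/3T3, an established mouse fibroblast line, and small RNA was sequenced before (input) and after immunoprecipitation with an antibody to pseudouridine (Ψ-IP). The conditions were labelled Pus1 WT, and knockdown of Pus1 for 3 days (KD3) or 6 days (KD6). Each of the 6 groups held 3 libraries, lettered A to C, so that 18 libraries were compared. Pus1 encodes a pseudouridine synthase, an enzyme that turns uridine in RNA into Ψ, and the comparisons ask which miRNAs the antibody recovers and whether recovery changes when the enzyme is depleted. The sources used here do not say how Pus1 was depleted, its mRNA was not measured in these small RNA libraries, and no IP with a nonspecific antibody was analysed here. The study's reporting summary states biological replicates for all experiments, but it marks cell lines as not applicable. Neither the labels nor the methods used here say whether libraries A to C came from separate cultures. The p-values therefore measure only the spread between these libraries, which may be technical.

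Mapped reads per library ran from 3989031 to 15099781 in 17 libraries, and KD6 input A stood apart with 241109. Reads mapped outside miRNA rows made up 5.60% ± 0.22 of WT input and 16.8% ± 1.88 of WT IP (SD, n = 3), 9.66% and 32.4% in KD3, and 8.82% and 27.6% in KD6. Of the fibroblast or mesenchymal marker miRNAs, 9 of 10 were at or above 137 RPM (reads per 1000000 miRNA reads, not scaled further) in all 18 libraries, whereas miR-196a-5p stayed at or below 5.70. The summed list ran from 474216 to 629594 RPM in inputs and from 197775 to 269918 in IPs. Markers of blood and epithelium stayed at or below 7.84, as did miR-124-3p, miR-133a-3p, miR-126a-3p and the undetected miR-208a-3p, and miR-1a-3p reached 11.0. The neuronal list's miR-9-5p was present at 3011 to 8451 RPM, and the hepatocyte marker miR-122-5p at 23.1 to 227, both with a higher median in the IP libraries. Their part in the results below was not tested.

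A miRNA hairpin is cut by Dicer into a short duplex, and one strand (the guide) is usually retained in an Argonaute protein while the other (the passenger) is lost. Bases 2 to 8 of the mature strand, the seed, do most of the target recognition. In these clusters the 3p arms are the usual guides. The miR-23, miR-27 and miR-24 families are known for roles in cell proliferation, glutamine metabolism (miR-23), adipocyte and lipid regulation (miR-27) and cell cycle control (miR-24).

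On mouse build GRCm38 (the assembly also called mm10), the a cluster lies at chr8:84208518-84208921 on the plus strand, a span of 404 bp with the hairpins Mir23a, Mir27a and Mir24-2 in that order. GENCODE M21 places Mir24-2 in an exon of the lincRNA Gm26532, and no gene other than the miRNA overlaps Mir23a or Mir27a. The b cluster lies at chr13:63300484-63301275, also on the plus strand, and spans 792 bp with Mir23b, Mir27b and Mir24-1. It sits within the protein-coding gene 2010111I01Rik on the same strand, with Mir23b in an intron and Mir27b and Mir24-1 overlapping annotated exons. All 3 hairpins of the b cluster also lie in an intron of Fancc on the opposite strand.

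The mature sequences below come from the RefSeq table for GRCm38.p6, which held 9 of the 10 members. miR-23b-3p is named only. They are shown because the results turn on pairs that share a seed (capitals) or a hairpin.
miR-23a-3p: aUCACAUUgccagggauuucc
miR-27a-3p: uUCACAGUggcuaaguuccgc
miR-27b-3p: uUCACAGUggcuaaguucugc
miR-24-3p: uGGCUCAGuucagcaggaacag
miR-23a-5p: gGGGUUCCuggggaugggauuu
miR-27a-5p: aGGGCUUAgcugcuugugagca
miR-27b-5p: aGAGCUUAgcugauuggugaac
miR-24-2-5p: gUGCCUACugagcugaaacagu
miR-24-1-5p: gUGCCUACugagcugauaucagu

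Positions are counted from 1 at the 5′ end, with the a-cluster base first. miR-27a-3p and miR-27b-3p share the seed and differ only by C19U. Their 5p partners differ at 8 positions without gaps, including G3A inside the seed. The 5p strands of miR-24 share their first 16 bases and hence the seed. Reads from such near-identical strands can be split or misassigned between rows, so values for a member against its copy are uncertain to that extent. The table holds fractional counts for miR-27a-3p in 18 of 18 libraries and for miR-27b-3p in 14. For miR-23a-3p the libraries numbered 17, for miR-23b-3p 14, for miR-27a-5p 13 and for miR-27b-5p 1. For miR-24-2-5p they numbered 10, and for miR-24-1-5p 13 of the 15 that held reads. miR-24-3p is identical at both loci, and its 2 rows were equal in all but 1 library, where they differed by 1.0 read. Which cluster supplied it cannot be told apart.

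The mir-23a hairpin carries the only member that was higher after IP, and is printed with both mature arms in capitals, the 5p arm first.
mir-23a: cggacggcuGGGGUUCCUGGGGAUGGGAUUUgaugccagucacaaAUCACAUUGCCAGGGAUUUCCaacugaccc
Its 5p arm contains 11 guanines in 22 bases and 59.1% GC, against a median of 52.2% over the 1679 mature miRNAs of the table. Its 3p arm contains 4 guanines in 21 bases and 47.6% GC. The uridine that could carry Ψ makes up 31.8% of the 5p arm and 28.6% of the 3p arm, both above the table's median of 26.1%. Among members that were lower after IP and had a sequence, GC ran from 47.62% to 54.55% and uridine from 18.2% to 33.3%. Whether base composition goes with recovery was not tested.

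In the WT input the 10 members took 1.49% ± 0.028 (SD, n = 3) of all miRNA reads. The share was 1.53% ± 0.048 in the KD3 input and 1.42% ± 0.19 in the KD6 input. After IP it was 0.397% ± 0.046 in WT, 0.392% ± 0.039 in KD3 and 0.254% ± 0.046 in KD6. The 9 inputs lay between 1.19% and 1.58% and the 9 IPs between 0.209% and 0.444%, with no overlap. A share of reads does not tell fewer molecules per cell from more reads of other miRNAs, and in bulk RNA fewer cells of a type and less RNA per cell cannot be told apart.

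Most of the members' reads came from 4 guides. miR-24-3p made up 44.5% ± 2.5 of them in the WT input, miR-27b-3p 19.1% ± 1.8, miR-27a-3p 14.2% ± 0.79 and miR-23a-3p 11.5% ± 1.6. The 5p strands of the a cluster followed, miR-24-2-5p at 5.84% and miR-27a-5p at 3.65%. miR-23b-3p made up 1.23%. The remaining miR-27b-5p, miR-24-1-5p and miR-23a-5p were each at or below 0.034%. After IP from WT cells miR-24-3p kept a similar part, 45.4% ± 0.92, miR-23a-3p made up 20.9% ± 0.76 and miR-27a-3p 6.82% ± 0.34.

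**Figure D1:**
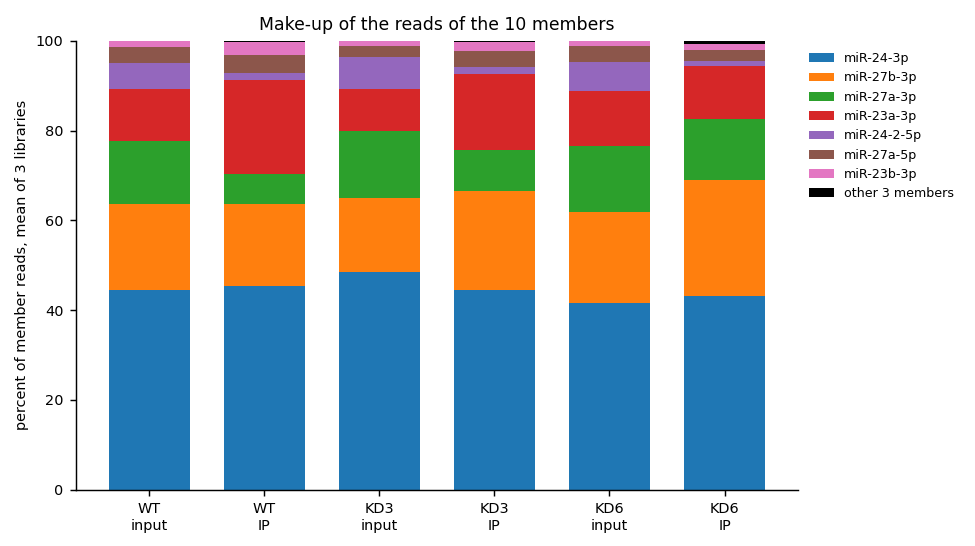
Stacked bars give the percent of all member reads (vertical axis, mean of 3 libraries) that each miRNA took in the 6 groups (horizontal axis). miR-24-3p was the largest part of every bar, and the mean miR-27a-3p part was 6.82% against 20.9% for miR-23a-3p in WT IP, and 13.7% ± 2.98 against 11.8% ± 5.04 (SD) in KD6 IP.

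Recovery by the antibody was then compared with input in each condition. In WT cells 8 of the 10 members were lower in IP than in input, miR-23a-5p alone was higher, and miR-27b-5p did not pass the test (edgeR quasi-likelihood test, Benjamini-Hochberg adjusted over 550 miRNAs). The same counts held in KD3 and in KD6. They include calls of miR-23a-5p and miR-24-1-5p, which passed the filter only through the side where each was high. Such calls were common: 68.9% of all miRNAs tested were called in WT (31.5% higher and 37.5% lower), 70.5% in KD3 (34.4% and 36.2%) and 71.3% in KD6 (35.8% and 35.5%). At an unadjusted p under 0.05 all but miR-27b-5p passed in each condition (background 71.3%, 73.3% and 73.5%). DESeq2 also called 9 members in each (background 50.8%, 49.7% and 50.8%). Without any overlap between input and IP libraries, 1 member was higher and 8 were lower in WT (background 76%, with 35.6% higher and 40.4% lower), 1 and 8 in KD3 (75.5%, with 35.5% and 40%), and 1 and 7 in KD6 (59.3%, with 33.8% and 25.5%). Over the 10 members the median log2 IP/input ratio was −1.65 (WT), −1.37 (KD3) and −1.77 (KD6), beside −0.04, −0.03 and −0.00 over all 550. Levels below are CPM after median-ratio scaling.

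**Figure D2:**
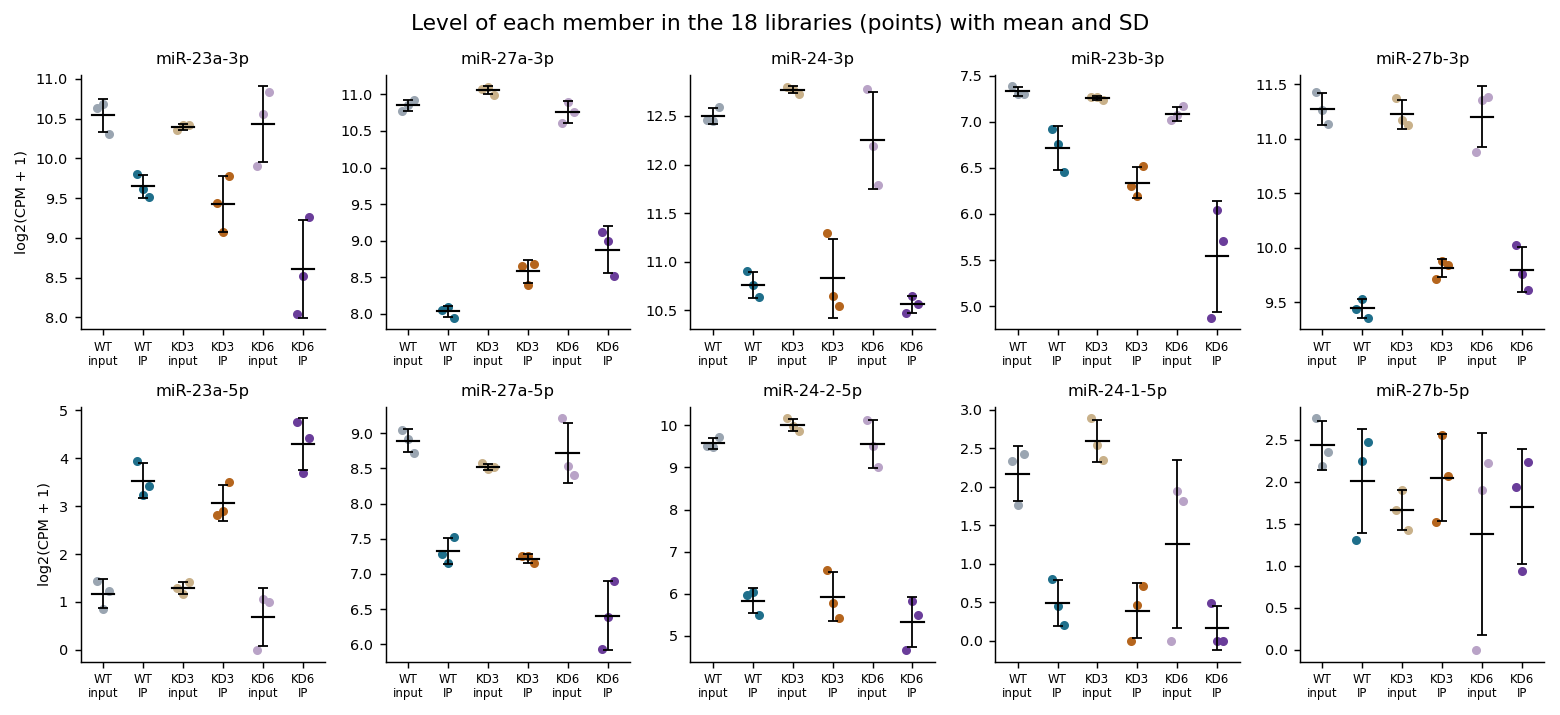
Each panel gives log2(CPM + 1) of a member (vertical axis) in the 18 libraries (points, letters A to C from left to right) of the 6 groups, with the mean and SD in black. IP points lie below all input points of the same condition for every 3p strand, for miR-27a-5p and for miR-24-2-5p, above them for miR-23a-5p, and among them for miR-27b-5p.

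Among the guides, miR-27a-3p was the most depleted in WT cells. Its WT inputs measured 1751, 1853 and 1940 CPM, and its WT IPs 265, 273 and 246. The log2 IP/input ratio was −2.82 ± 0.18 (SE, edgeR adjusted p = 1.41e-11). In KD3 the inputs measured 2146, 2200 and 2037 CPM and the IPs 404, 336 and 409 (log2 ratio −2.47 ± 0.18, adjusted p = 1.07e-10). In KD6 the inputs measured 1555, 1911 and 1734 CPM and the IPs 557, 509 and 367 (−1.87 ± 0.17, adjusted p = 4.51e-09). IP and input libraries did not overlap in any condition, and the ratio in KD6 was closer to 0 on this scaling, a difference tested below. When a library was left out, however, the KD6 ratio ranged from −2.39 to −1.71. The KD3 ratio ranged from −2.51 to −2.38 in the same way, so the ranges met.

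miR-27b-3p, the copy in the b cluster, had WT inputs of 2749, 2456 and 2250 CPM and WT IPs of 692, 739 and 655. Its log2 IP/input ratio was −1.84 ± 0.17 in WT, −1.42 ± 0.17 in KD3 and −1.42 ± 0.17 in KD6, all called lower by edgeR (adjusted p at most 2.77e-07), and without KD6 input A the KD6 ratio was −2.02. KD3 IPs measured 840 to 940 CPM and KD6 IPs 783 to 1038, in every library below the inputs of its condition.

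miR-24-3p, the most abundant member, had WT inputs of 5630, 5597 and 6179 CPM and WT IPs of 1913, 1734 and 1590. Its log2 IP/input ratio was −1.73 ± 0.22 in WT, −1.90 ± 0.22 in KD3 and −1.74 ± 0.22 in KD6 (edgeR adjusted p = 4.59e-07, 1.40e-07 and 3.89e-07). KD6 inputs were spread from 3533 to 7001 CPM, the highest being KD6 input A, whereas the KD6 IPs lay close together, from 1418 to 1603. The groups did not overlap in any condition.

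miR-23a-3p was less depleted in WT and KD3. WT inputs measured 1589, 1647 and 1260 CPM and WT IPs 895, 782 and 733 (log2 ratio −0.90 ± 0.26, edgeR adjusted p = 0.00440). KD3 IPs measured 695, 536 and 874 CPM against inputs from 1307 to 1374 (−0.94 ± 0.26, adjusted p = 0.00329). KD6 IPs measured 262, 367 and 614 CPM against inputs of 953, 1506 and 1822 (−1.79 ± 0.27, adjusted p = 4.34e-06), and without KD6 input A the ratio was −2.46. The KD6 IP libraries differed from each other by more than those of WT, with an SD of 180 CPM around a mean of 414 against 83.2 around 803.

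Its copy miR-23b-3p was the scarcest guide. WT inputs measured 166, 157 and 156 CPM and WT IPs 121, 107 and 86.9, and the groups did not overlap. The log2 ratio was −0.61 ± 0.22 in WT (edgeR adjusted p = 0.0188), −0.92 ± 0.22 in KD3 and −1.50 ± 0.24 in KD6 (adjusted p = 0.00113 and 8.93e-06). The WT call was lost without WT input A (log2 ratio −0.58, edgeR adjusted p = 0.0582; background 58%), without WT IP C (−0.49, adjusted p = 0.0947; 61.3%) and with no filter on low counts (adjusted p = 0.0546; 32.3%).

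The log2 IP/input ratios of the 5p strands ran from the lowest to the highest among the members. miR-24-2-5p, from the a cluster, had WT inputs of 730, 711 and 843 CPM and WT IPs of 61.3, 64.5 and 43.9. Its log2 IP/input ratio was −3.75 ± 0.33 in WT, −4.04 ± 0.34 in KD3 and −4.23 ± 0.34 in KD6 (edgeR adjusted p at most 2.34e-09). The IPs of all 3 conditions lay between 24.3 and 93.9 CPM, and the inputs between 511 and 1151.

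The b-cluster strand with the same seed, miR-24-1-5p, was rare. WT inputs held 41.8, 33.1 and 55.2 estimated reads and WT IPs 2.6, 2.5 and 1.0. No IP library of any condition held more than 3.5. Summed over a condition, the IP-to-input ratio of its share of miRNA reads was 0.0949 in WT (95% exact binomial interval 0.0342 to 0.212), 0.0747 in KD3 (0.0240 to 0.178) and 0.0419 in KD6 (0.00494 to 0.159), intervals that cover counting error only. edgeR called it lower in all 3 conditions (adjusted p = 0.000174, 6.81e-05 and 0.000394), but in KD6 the groups overlapped because KD6 input A, the shallow library, held 0 reads. The strand passed the filter only through input libraries, so these calls are no independent support for its depletion.

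miR-27a-5p had WT inputs of 526, 483 and 420 CPM and WT IPs of 154, 142 and 183. The log2 ratio was −1.57 ± 0.23 in WT, −1.31 ± 0.23 in KD3 and −2.27 ± 0.24 in KD6 (edgeR adjusted p = 3.45e-06, 3.40e-05 and 3.37e-08). The KD6 IPs measured 59.9, 83.2 and 119 CPM, and the other IPs 141 to 183. How many of all miRNAs part in this way between IP groups was not counted.

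miR-23a-5p moved the other way. WT inputs measured 1.72, 0.80 and 1.35 CPM and WT IPs 14.3, 8.39 and 9.69. KD3 inputs ran from 1.25 to 1.68 CPM and IPs from 5.98 to 10.3. KD6 inputs measured 0, 1.09 and 1.00 CPM and IPs 25.9, 11.9 and 20.4. IP and input did not overlap in any condition. The log2 IP/input ratio was 3.06 ± 0.39 in WT, 2.42 ± 0.39 in KD3 and 4.23 ± 0.48 in KD6 (edgeR adjusted p = 5.12e-07, 1.48e-05 and 7.31e-08), higher than that of 98.5%, 91.5% and 98.2% of the miRNAs tested. miR-23a-5p entered the test only through its IP libraries, so these p-values and ranks describe it and are no independent support. Without KD6 input A, which held 0 reads, the KD6 value was 3.75, and 9 members were called in KD6 as before (background 66.1%). Without KD6 IP C 9 were called as well (background 68.5%). The strand is rare: summed over 3 libraries it had 46 input and 167 IP reads for WT, against 50 and 98 for KD3 and 20 and 200 for KD6, and at most 9.5 distinct read sequences in a library. Divided by the miRNA reads behind them, these sums gave an IP-to-input ratio of 7.46 in WT (95% exact binomial interval 5.36 to 10.6), 5.39 in KD3 (3.80 to 7.74) and 10.7 in KD6 (6.74 to 17.9).

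miR-27b-5p did not pass the test in any condition. Its WT inputs measured 5.74, 3.56 and 4.12 CPM and its WT IPs 1.48, 3.73 and 4.54. The log2 ratio was −0.42 (95% interval −1.37 to 0.53) in WT, 0.58 (−0.45 to 1.60) in KD3 and −0.21 (−1.34 to 0.93) in KD6, and the groups overlapped throughout. At 2.0 to 60.5 reads in the 17 libraries that held any, changes within these intervals were not detectable. With total mapped reads as library size it was called lower in KD6 (−1.38, edgeR adjusted p = 0.0285), where 70.2% of all miRNAs were called and their median was −1.16.

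**Figure D3:**
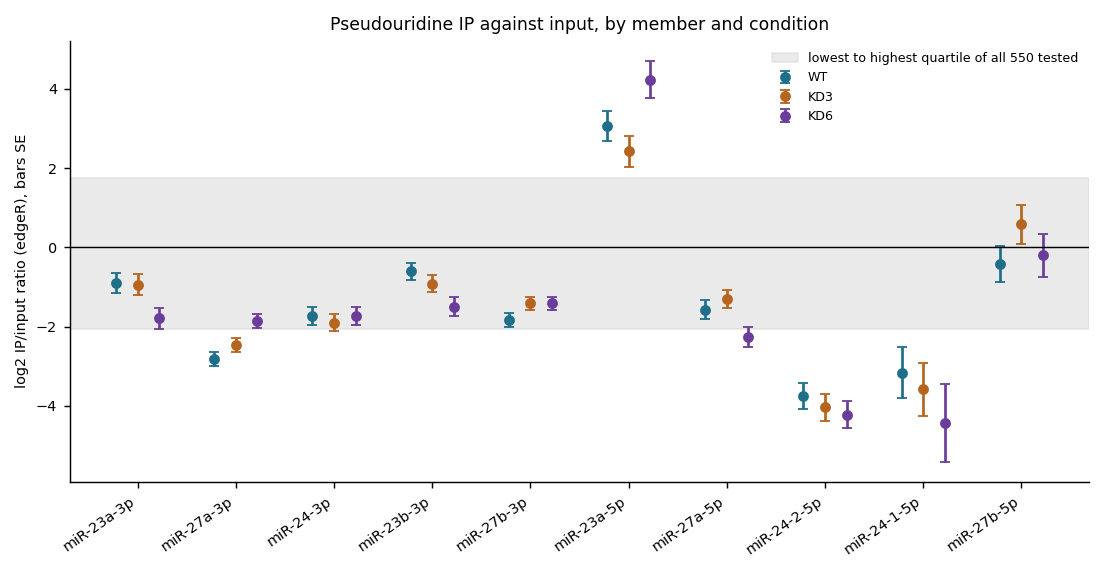
The log2 IP/input ratio (vertical axis, points, bars SE, n = 3 against 3) of each member (horizontal axis) in WT, KD3 and KD6, with a gray band from the lowest to the highest quartile of all 550 miRNAs tested. miR-23a-5p sits above the band in all 3 conditions, both miR-24 5p strands sit below it, and miR-27b-5p lies near 0.

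A ratio of a pair of members counted in the same library does not depend on how libraries are scaled, so 10 such ratios were compared between IP and input (pseudocount 0.5; two-sided exact permutation of IP and input labels within condition; adjusted over the 10). With 8000 arrangements the smallest p that the test can give is 0.00025, and within a single condition it cannot go below 0.1. Ratios of other pairs of miRNAs were not computed, so the separations and p-values below have no background. Of single miRNAs, 76% (WT), 75.5% (KD3) and 59.3% (KD6) had IP and input libraries that did not overlap.

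The copies of miR-27, whose guides differ by a single base, parted in IP. In input, miR-27a-3p was counted at 0.746 (WT), 0.888 (KD3) and 0.733 (KD6) times the level of miR-27b-3p, as geometric means of 3 libraries. In IP it was at 0.376, 0.425 and 0.528 times that level. The log2 ratio fell by 0.84 on average (exact permutation adjusted p = 0.00083), and the 9 inputs, from −0.65 to −0.07, did not overlap the 9 IPs, from −1.48 to −0.77. For the 5p copies miR-27a-5p/miR-27b-5p was also lower in IP on average, by a log2 ratio of −1.64 (exact permutation adjusted p = 0.0010). IP and input overlapped in WT, where IP A (6.59) lay above input A (6.49), and the ratio rests on few reads of miR-27b-5p, of which KD6 input A held 0.

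No such separation was seen for the other copies. miR-23a-3p/miR-23b-3p was 9.32, 8.88 and 10.2 in the inputs and 7.70, 8.60 and 8.52 in the IPs, a mean log2 difference of −0.19 (exact permutation adjusted p = 0.181). miR-24-2-5p exceeded miR-24-1-5p by a factor of 216 in WT input and 121 in WT IP, and over all conditions the difference was −0.81 (adjusted p = 0.0894 by exact permutation), with few reads of miR-24-1-5p behind it. Without KD3 IP A the difference was −1.11 (exact permutation adjusted p = 0.0058). With a pseudocount of 5 it was −2.35. That pseudocount exceeds every IP count of miR-24-1-5p, which was at most 3.5, so the larger difference is no separate evidence.

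Arms of the same hairpin were recovered unequally. For mir-23a the 5p strand rose against the 3p strand by 4.26 on the log2 scale (exact permutation adjusted p = 0.00083): the 3p strand outnumbered it 1172-fold in WT input and 75.5-fold in WT IP, 915-fold and 91.7-fold in KD3, and 957-fold and 20.9-fold in KD6. The KD6 input mean includes input A, where 0 reads of the 5p strand left the value of 387 to the pseudocount, while inputs B and C gave 1300 and 1745. miR-23a-5p passed the filter only through IP libraries, so the p-value of this ratio is no independent support. For miR-24 the change ran in the opposite direction. miR-24-3p outnumbered the summed 5p strands 7.59-fold in WT input and 31.0-fold in WT IP, 6.75-fold and 30.3-fold in KD3, and 6.47-fold and 38.2-fold in KD6, a fall of the 5p/3p ratio by 2.25 on the log2 scale (exact permutation adjusted p = 0.00083). In both hairpin families the IP and input libraries did not overlap in any of the 3 conditions. The share of other pairs of miRNAs that part in this way was not counted.

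For mir-27b the 5p/3p log2 ratio was higher in IP by 1.45 (exact permutation adjusted p = 0.0010), apart in 2 of 3 conditions. For mir-27a it was higher by 0.66 on average (exact permutation adjusted p = 0.0475), which combined a gain of 1.25 in WT and 1.16 in KD3 with −0.44 in KD6, where the libraries overlapped. That call was lost when any of 16 of the 18 libraries was left out (log2 differences of 0.51 to 0.78 over all 18). Over all tested miRNAs, 5p strands and 3p strands had similar median log2 IP/input ratios in WT (0.06 for 244 and −0.09 for 263).

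**Figure D4:**
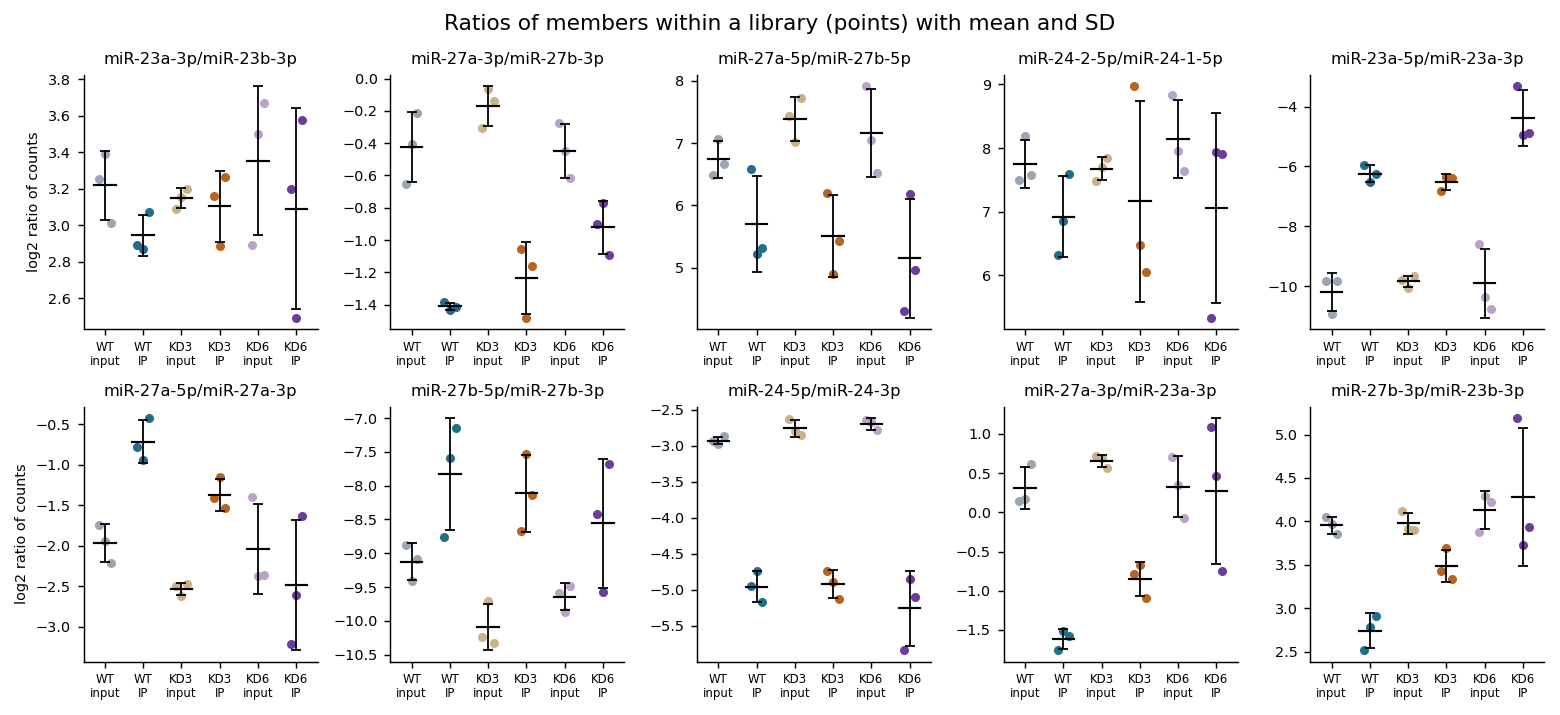
Each panel gives the log2 ratio of the counts of a pair of members in the same library (vertical axis; points, mean and SD) for the 6 groups. The points for miR-27a-3p/miR-27b-3p and for miR-24-5p/miR-24-3p are lower in every IP than in every input, those for miR-23a-5p/miR-23a-3p are higher, and the KD6 IP points of the cluster-mate ratios (last 2 panels) spread over and beyond the range of the inputs.

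Guides cut from the same transcript also differed. Within the a cluster, miR-27a-3p/miR-23a-3p was 1.24 in WT input and 0.326 in WT IP, and 1.58 and 0.555 in KD3, whereas in KD6 it was 1.25 in input and 1.21 in IP. The mean log2 change was −1.16 (exact permutation adjusted p = 0.0046), made of −1.93 in WT, −1.51 in KD3 and −0.06 in KD6. Within the b cluster, miR-27b-3p/miR-23b-3p was 15.5 in WT input and 6.68 in WT IP, 15.8 and 11.2 in KD3, and 17.5 and 19.5 in KD6. The mean log2 change was −0.52 (exact permutation adjusted p = 0.0464), made of −1.21, −0.49 and 0.15. The b-cluster call was lost on leaving out any of 12 of the 18 libraries (log2 differences of −0.67 to −0.43 over all 18). In both clusters the libraries did not overlap in WT and KD3 and overlapped in KD6.

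Whether recovery changed on Pus1 knockdown was tested as the difference between IP/input ratios. No member was called in KD3 against WT, KD6 against WT or KD6 against KD3 by edgeR, where the background was 0%, 0% and 0.182% of 550 miRNAs. At an unadjusted p under 0.05 the members numbered 0, 4 and 4 (background 2.91%, 21.6% and 20.4%), and DESeq2 called 0, 2 and 1 (background 0%, 7.75% and 9.04%). The 3 comparisons share libraries.

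In KD3 against WT the changes lay between −0.64 (miR-23a-5p, 95% interval −1.78 to 0.50) and 0.99 (miR-27b-5p, −0.41 to 2.39). That of miR-24-3p was −0.17 (−0.79 to 0.46). In KD6 against WT miR-27a-3p had the lowest p, with a change of 0.96 ± 0.24 on the log2 scale (95% interval 0.46 to 1.45, edgeR adjusted p = 0.0847), and DESeq2 called it (0.95, adjusted p = 0.00176). Its IP levels were 246 to 273 CPM in WT and 367 to 557 in KD6. The median change of all 550 miRNAs in this comparison was 0.25. The size of the miR-27a-3p change depended on the scaling: it was 0.33 (adjusted p = 0.537 by edgeR) with library sizes and no factors, where the median of all was −0.41, and 0.18 (adjusted p = 0.782) with total mapped reads, where it was −0.56.

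Guides of miR-23 had changes of the opposite sign in KD6 against WT. miR-23b-3p differed by −0.89 ± 0.32 (edgeR adjusted p = 0.137; DESeq2 adjusted p = 0.0482) and miR-23a-3p by −0.89 ± 0.37 (adjusted p = 0.184). miR-27a-5p differed by −0.69 ± 0.32 (adjusted p = 0.221). miR-24-3p showed a change of −0.01 (95% interval −0.63 to 0.62), and miR-27b-3p one of 0.42 (−0.08 to 0.91), which was −0.22 without factors and −0.37 with total mapped reads. With total mapped reads as library size 3 members passed (background 8.98%): miR-23a-3p at −1.63, miR-23b-3p at −1.62 and miR-27a-5p at −1.34, beside a median of −0.56 over all miRNAs. Without KD6 IP C, 3 members passed: miR-23a-3p at −1.31, miR-27a-3p at 1.10 and miR-27a-5p at −1.01 (edgeR adjusted p = 0.0220, 0.0186 and 0.0430; background 9.61%). Without KD6 input A, miR-23a-3p alone passed, at −1.28 (edgeR adjusted p = 0.0484, background 2.35%).

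In KD6 against KD3 miR-23a-5p differed by 1.81 ± 0.61 (edgeR adjusted p = 0.116), miR-27a-5p by −0.95 ± 0.33 (adjusted p = 0.117), miR-27a-3p by 0.61 ± 0.24 (adjusted p = 0.149) and miR-23a-3p by −0.85 ± 0.37 (adjusted p = 0.192). DESeq2 called miR-27a-5p (−0.94, adjusted p = 0.0473). Without KD6 IP C, 3 members passed edgeR's test: miR-23a-3p at −1.24, miR-27a-3p at 0.78 and miR-27a-5p at −1.24 (background 10.6%). Without KD6 input A none passed (background 3.52%). With library sizes and no scaling factors miR-27a-5p passed at −1.43 (edgeR adjusted p = 0.0378, background 2.18%).

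**Figure D5:**
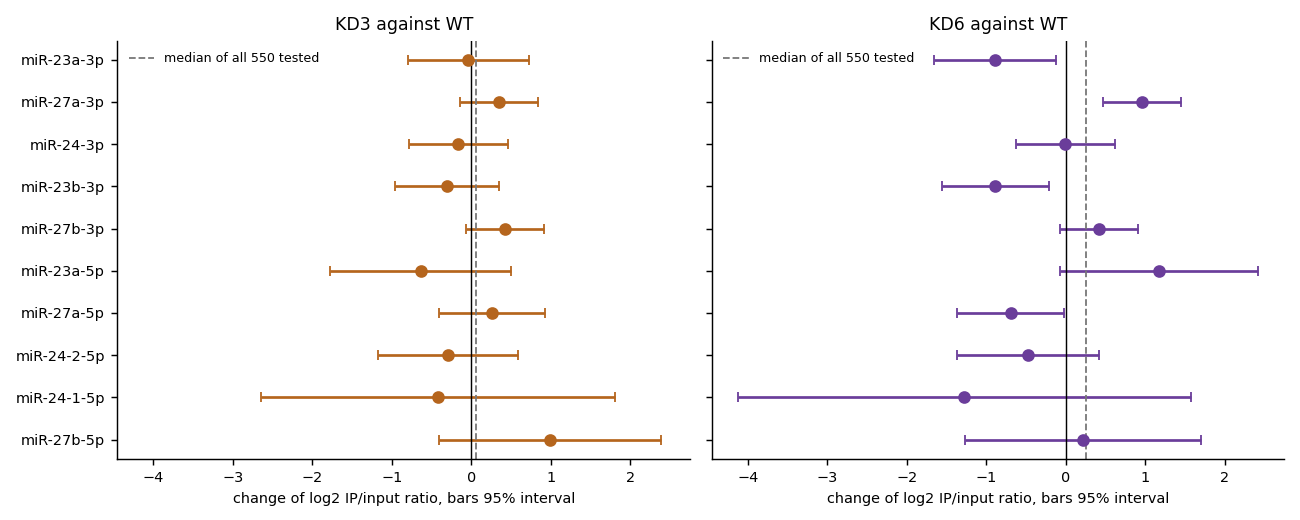
The change of the log2 IP/input ratio (horizontal axis, points, bars 95% interval) in KD3 (left) and KD6 (right) against WT for each member (vertical axis), with the median of all 550 miRNAs dashed. In KD6 the interval of miR-27a-3p (0.46 to 1.45) lies above 0, those of miR-23a-3p, miR-23b-3p and miR-27a-5p lie below it, and none passed the adjusted edgeR test.

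The same changes were examined in the ratios, by permuting condition labels among inputs and among IPs. This test was chosen after the ratios had been seen. With 400 arrangements the smallest p is 0.005, and none of the 20 changes passed after adjustment (lowest adjusted p = 0.300). The miR-27a-3p/miR-23a-3p ratio lost 1.87 less on the log2 scale in KD6 than in WT (exact permutation p = 0.055), and its IP values were −1.76 to −1.52 in WT against −0.74 to 1.09 in KD6. For miR-27b-3p/miR-23b-3p the change was 1.37 in KD6 (exact permutation p = 0.09) and 0.72 in KD3 (p = 0.07). For miR-27a-5p/miR-27a-3p it was −1.69 in KD6 (exact permutation p = 0.08). In these 4 of the 20 changes every IP-minus-input difference of the knockdown lay on one side of all those of WT. How many other pairs of miRNAs part in this way was not counted, and none of the 4 passed the adjusted test. The input ratios themselves differed by 0.02, 0.18, 0.02 and −0.08 on the log2 scale.

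Abundance before IP was compared between the conditions as well. No member was called by edgeR in the KD3, KD6 against WT or KD6 against KD3 inputs (background 0%, 3.09% and 4% of 550; higher and lower 1.09% and 2% in KD6 against WT, 1.27% and 2.73% in KD6 against KD3), and DESeq2 called none (background 3.76%, 7.51% and 7.78%). At an unadjusted p under 0.05 the members numbered 1, 0 and 1 (background 8%, 14.2% and 17.6%). They were miR-27b-5p in KD3 against WT, with inputs of 2.16, 2.72 and 1.68 CPM against 5.74, 3.56 and 4.12 (log2 ratio −1.01 ± 0.45, edgeR adjusted p = 0.519), and miR-24-3p in KD6 against KD3 (−0.47 ± 0.21, adjusted p = 0.257). The intervals for the abundant guides were narrow. In KD6 against WT miR-27a-3p differed by −0.09 (95% interval −0.44 to 0.26) and miR-27b-3p by −0.05 (−0.40 to 0.30).

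In KD3 against WT inputs 3 members lay above and 3 below the WT libraries without overlap (background 30.7% of miRNAs, 15.8% higher and 14.9% lower). In KD6 against WT 1 member lay below (background 24.5%, 7.45% higher and 17.1% lower), and in KD6 against KD3 4 lay below (24.2%, 7.82% and 16.4%). When the 6 input libraries of KD3 and WT were fitted alone, 4 members passed KD3 against WT (background 14.2%): miR-24-2-5p at 0.45 and miR-24-3p at 0.28 were higher in KD3, and miR-27a-5p at −0.36 and miR-27b-5p at −0.99 were lower (edgeR adjusted p = 0.00868, 0.0204, 0.0230 and 0.0376). With the replicate letter as a block in that fit, added after the data were seen, 3 passed (background 15.5%), and miR-27b-5p had an adjusted p of 0.0581. Without KD6 input A, miR-24-3p was lower in KD6 than in KD3 inputs, at −0.76 (edgeR adjusted p = 0.0126, background 8.39%), and none passed in KD6 against WT (background 5.2%).

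The miRNAs whose level was most like that of a member over the 18 libraries were found among 149 others with a mean of at least 100 CPM. This is a description, since all libraries share the contrast of IP and input. For miR-24-3p they were miR-24-2-5p (Pearson r = 0.99), its own passenger strand, then miR-214-5p and miR-378a-3p (both 0.98). For miR-27a-3p they were miR-455-5p, miR-300-3p and miR-101a-3p (all 0.99), and miR-101a-3p had a log2 IP/input ratio of −5.48 in WT and −4.48 in KD6. For miR-23a-3p they were miR-31-5p and miR-93-5p (both 0.94) and its copy miR-23b-3p (0.93).

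Other miRNAs related by seed were examined in the same way. The 4 that share the seed of miR-24-3p in the RefSeq table, miR-6413, miR-6410, miR-6369 and miR-5124b, had 0 reads. miR-128-3p, whose seed overlaps that of miR-27 by an offset, was higher in IP, with a log2 ratio of 1.23 in WT, 1.24 in KD3 and 2.22 in KD6 (edgeR adjusted p = 0.000216, 0.000199 and 2.11e-07), against −2.82, −2.47 and −1.87 for miR-27a-3p. miR-23b-5p, the passenger of the b-cluster miR-23 and not one of the 10, was looked up after the values of miR-23a-5p were seen. It measured 0.86, 1.82 and 2.14 CPM in WT input and 8.65, 7.09 and 10.6 in WT IP, a log2 ratio of 2.43 ± 0.52, with 2.99 in KD3 and 2.10 in KD6 (edgeR adjusted p = 0.000352, 8.09e-05 and 0.00550), and in KD6 its groups overlapped. Its sequence is printed with the seed in capitals, and that seed is not the one of miR-23a-5p but overlaps it by an offset.
miR-23b-5p: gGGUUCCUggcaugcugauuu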

How the data were processed

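Small RNA from NIH/3T3 cells was sequenced in 18 libraries. The deposited table holds estimated counts of mapped reads per mature miRNA and hairpin, which the authors made with SeqImp (mm10, Ensembl 89, miRBase 21); its counts are fractional because reads that match several loci are divided (47.0% of non-zero values were not whole). A column of distinct read sequences per library was used only for description. Rows of a mature miRNA were summed and rounded. edgeR 4.0.16 quasi-likelihood tests with median-ratio (RLE) factors, after filterByExpr, fitted 6 group means over all libraries, with calls at a Benjamini-Hochberg adjusted p under 0.05. DESeq2 1.42.0, the tool of the authors, served as an alternative, as did other scalings, filters and left-out libraries. Count tests were tested on simulated data. Exact permutation tests used NumPy 2.4.6 and Python 3.11.15, and exact binomial intervals used SciPy 1.17.1. Exact binomial intervals and floors (3 counts) cover counting error only, whereas intervals of log2 ratios come from edgeR's standard errors and include the spread between libraries.

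The members, gene lists, scaling and tests were chosen with earlier results of these data known. By rule, all 10 members were named, with the 3 miRNAs most like each of 3 guides, seed relatives and miR-128-3p. Replicate letters appeared to pair only in the inputs of KD3 against WT (correlations of deviations 0.61, 0.20 and 0.35 over 188 miRNAs) and of KD6 against KD3 (0.24, 0.34 and 0.32), since all exceeded 0.1. The main tests did not use this pairing, which entered only as a block in alternatives. With the block in a fit of the KD6 and KD3 inputs alone, 0 of 492 miRNAs were called.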

Additional observations from a re-analysis of the deposited data

How the results depend on the processing

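The counts of called members in IP against input, 9 in each condition, ran from 7 to 9 (WT), 6 to 9 (KD3) and 8 to 10 (KD6) over the alternatives run, the lowest of WT and KD3 being those that required a change beyond 2-fold, and the called members kept their direction in all of them. The median of all miRNAs moved from −0.04 to −0.35 in WT with TMM factors, and to −0.38, −0.61 and −1.16 in WT, KD3 and KD6 with total mapped reads as library size. The change in KD6 against WT, where no member was called, gave 3 called members with total mapped reads (miR-23a-3p −1.63, miR-23b-3p −1.62 and miR-27a-5p −1.34, beside a median of −0.56 for all miRNAs), 2 with DESeq2, and 0 to 3 when a library was left out. KD6 against KD3 gave 1 with library size alone, 1 with DESeq2 and 0 to 3 when a library was left out. Inputs of KD3 against WT gave 4 with the 6 libraries fitted alone and 3 with a replicate block added to that fit, and inputs of KD6 against KD3 gave 0 to 1 when a library was left out. Over all miRNAs tested, calls went from 0 to 32 (DESeq2) and 51 (total mapped reads) in KD6 against WT, from 1 to 31 (DESeq2) and 12 (library size alone) in KD6 against KD3, and from 0 to 75 and 82 in the inputs of KD3 against WT fitted alone without and with the block. The replicate block over all 18 libraries changed no count of called members by over 1.5 times. Where letters pair in the inputs, it left KD3 against WT at 0 members.

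miR-27b-5p, not called in any condition with the scaling used, was called in KD6 with total mapped reads (−1.38, edgeR adjusted p = 0.0285), changed sign with total mapped reads in KD3 (−0.0105), and in KD6 ranged from −0.72 to 0.15 when a library was left out. The miR-27a-3p change in KD6 against KD3 was −0.007 with library size alone. Of the ratios, paired sign flips (replicate block) left miR-27a-5p/miR-27a-3p at 0.66 and miR-27b-3p/miR-23b-3p at −0.52 with adjusted p = 0.151 and 0.134 (exact permutation). By the rule above, letters were not taken to pair IP with input libraries, but that rule cannot show that pairing is absent. Correlations of deviations between IP and input of the same letter ran from −0.18 (KD6 B) to 0.52 (KD6 C). With a library left out the same ratios ranged from 0.51 to 0.78 and from −0.67 to −0.43. miR-24-2-5p/miR-24-1-5p was −2.35 with a pseudocount of 5, which exceeds every IP count of miR-24-1-5p, and −1.11 to −0.52 when a library was left out. The cause of the other shifts was not tested. KD6 input A, with 241109 mapped reads, limits the KD6 input values of the rare 5p strands, of which it held 0 reads of miR-23a-5p, miR-24-1-5p and miR-27b-5p.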
